A study of Mus musculus with 18 samples.

Results

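The somite clock and somite differentiation genes were followed over a Tbx1 allelic series. They were chosen by name: 5 genes of the segmentation clock and of somite borders (Hes7, Lfng, Dll1, Dll3 and Mesp2) and 4 genes of somite differentiation (Tcf15, Meox1, Pax3 and Nkx3-2). These 9 genes had 12 probe sets of the 45037 on the Affymetrix array, 6 in each set. RNA came from 18 whole mouse embryos of embryonic day 9.5 on a mixed 129SvEv and C57Bl/6 background, 1 embryo per array, with 2 biological replicates for each of 9 genotypes. The control was WT (Tbx1+/+). Embryos with 1 wild-type allele were Neo2/+, Neo/+ or +/-. Those with 0 were homozygous (Neo2/Neo2, Neo/Neo or -/-) or carried a pair of different mutant alleles (Neo2/Neo or Neo2/-). Neo2 and Neo are hypomorphic alleles of Tbx1, which keep part of its activity, and - is a null allele. The labels name no somite number or other stage of the single embryos. Whole embryos mix all tissues, so fewer cells of a type and less RNA per cell cannot be told apart.

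Somites are the blocks of paraxial mesoderm that give rise to vertebrae, ribs, skeletal muscle and dermis. They bud in pairs from the presomitic mesoderm, where a clock made of Notch, Wnt and FGF feedback loops cycles: Hes7 represses its own transcription and that of Lfng, and Lfng modifies the Notch receptor. Once a somite has formed, its ventral part becomes sclerotome and its dorsal part dermomyotome and myotome. Several of these genes are not somite genes alone, since Dll1, Dll3 and Lfng also act in the neural tube and Pax3 marks the dorsal neural tube and neural crest. Tbx1 encodes a T-box factor best known from pharyngeal development.

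The upstream sequences of Hes7 and Lfng are shown because both are cycling targets of Notch, and among the members with a RefSeq start site these were the only ones whose window held the core that the Notch effector RBPJ binds. RefSeq windows (GRCm38.p6, the 250 bases before an annotated start, plus strand) were found for 6 of the 9 genes, in 7 windows. Capitals mark matches, on either strand, to TGGGAA (RBPJ core), CACNAG (N-box, a site class of Hes factors) and CACGTG (E-box).
Hes7, chr11:69120203-69120452: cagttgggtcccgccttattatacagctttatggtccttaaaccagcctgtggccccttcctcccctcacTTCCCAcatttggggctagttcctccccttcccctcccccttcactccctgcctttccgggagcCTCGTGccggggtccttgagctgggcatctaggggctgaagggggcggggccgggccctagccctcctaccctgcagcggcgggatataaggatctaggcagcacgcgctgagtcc
Lfng, chr5:140607091-140607340: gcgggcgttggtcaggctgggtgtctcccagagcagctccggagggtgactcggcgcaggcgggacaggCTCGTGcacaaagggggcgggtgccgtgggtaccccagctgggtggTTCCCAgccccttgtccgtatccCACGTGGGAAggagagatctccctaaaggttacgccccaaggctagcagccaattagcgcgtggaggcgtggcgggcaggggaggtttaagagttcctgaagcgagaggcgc
The Hes7 window held 1 RBPJ core, 180 to 175 bases before the start on the minus strand, and 1 N-box. The Lfng window held 2 RBPJ cores and 1 N-box, and its plus-strand core, 108 to 103 bases before the start, overlapped the E-box that begins 112 bases before it. Of all 32851 windows of this length, 21.6% held an RBPJ core, 36.7% an N-box and 6.02% an E-box. The T-box sequence GGTGTGA was in 3.33% of windows and in 0 of the 7 member windows. The Hes7 window lies inside the annotated span of the gene (chr11:69118906-69124054), and the Lfng window ends just before the first base of its gene.

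Tbx1 itself was read first. Its signal was 6.59 ± 0.06 in WT (log2, SD, n = 2), 5.12 ± 0.11 in Neo/Neo and 5.07 ± 0.13 in -/-, and it was 5.66 ± 0.02 in Neo2/Neo and 5.71 ± 0.13 in Neo2/-. On the arrays labelled Neo2/Neo2 it was 6.62 ± 0.0039, the highest mean of the 9 genotypes, which goes against a label of 2 hypomorphic alleles. The reason was not tested, and directions drawn from these arrays are those of the arrays so labelled. In limma the difference from WT was -1.47 in Neo/Neo (adjusted p = 0.0029) and -1.52 in -/- (adjusted p = 0.0030). Both calls just missed the threshold without 1 of the 2 mutant arrays (adjusted p = 0.0512 without Neo/Neo replicate 1 and 0.0524 without -/- replicate 1). Array medians lay between 5.73 and 5.94. The first +/- array and the first -/- array stood apart, with median correlations with the other arrays of 0.975 and 0.985. Calls, member correlations and most-alike genes below are also given without them, and ranks over 18 arrays only. Sex-linked transcripts gave 9 embryos of each sex. WT and -/- held only females and Neo2/Neo2 and Neo/Neo only males. With sex as a covariate limma again called 0 of the 12 somite probe sets in every comparison described below.

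No somite gene passed the test in any comparison of a mutant genotype with WT. limma called 0 of the 12 probe sets in each of the 8 comparisons. Of all probe sets it called 0% in Neo2/+ and +/-, 0.00222% in Neo2/Neo2, Neo2/Neo and Neo2/-, 0.0311% in Neo/+ and -/- and 0.0822% in Neo/Neo. The smallest adjusted p among the members was 0.167, for Pax3 in -/-. The test of any difference between the 9 genotypes called 0 of 12 as well, against 0.275% of all probe sets, and the members' adjusted p-values ran from 0.311 (Meox1) to 0.922 (the dimmer Lfng probe set). At an unadjusted p under 0.05 that test held 3 of the 12 (Hes7, Dll3 and Meox1), with 13.7% of all probe sets at that level. On simulated data the fit recovered 16.4% of changes of 0.5, 79.1% of changes of 1 and 93.9% of changes of 2 (log2) in -/- against WT, and 2 embryos a group would miss most changes of the smallest of these sizes. These shares hold for the simulated data only. On the real arrays, 9 neuron marker genes had a median difference of -1.32 in Neo2/Neo2 against WT. All 9 had a limma unadjusted p under 0.05, against 11.6% of all probe sets, yet 0 were called. Changes above 1 may thus be missed as well.

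Hes7 encodes the bHLH repressor at the centre of the mouse clock. Its signal was 6.13 and 6.04 in WT. Embryos with 1 wild-type allele had 5.97 and 5.85 (Neo2/+), 6.12 and 6.09 (Neo/+), and 6.19 and 6.69 (+/-). Those with 0 had 6.17 and 6.57 (Neo2/Neo2), 5.52 and 5.99 (Neo2/Neo), 6.06 and 6.23 (Neo2/-), 5.87 and 5.93 (Neo/Neo), and 6.11 and 6.39 (-/-). Both embryos of Neo2/+, of Neo2/Neo and of Neo/Neo lay below both WT embryos, against 20.7%, 23.8% and 20.7% of all probe sets. Both +/- and both Neo2/Neo2 embryos lay above them, against 21.6% and 24.8% of all probe sets. The genotype means ran from 5.76 to 6.44, with a spread between embryos of 1 genotype of 0.20 (SD, 9 degrees of freedom), so neighbours in that order do not differ beyond their spread.

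Lfng encodes the glycosyltransferase that modulates Notch signalling. Its brighter probe set ranged from 7.44 in -/- replicate 1 to 8.21 in +/- replicate 1 with a median of 7.84. The -/- embryos were at 7.44 and 7.99, on either side of WT (7.76 and 7.83). Its dimmer probe set was at 5.21 and 6.38 in the same -/- embryos, the lowest and highest values of that probe set.

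Dll1 and Dll3 encode Notch ligands, of which Dll3 is the divergent one that does not activate the receptor in a neighbouring cell. The Dll3 signal was 8.61 and 8.93 in WT. With 1 wild-type allele it was 8.76 and 8.80 (Neo2/+), 8.64 and 8.41 (Neo/+), and 8.88 and 8.66 (+/-). With 0 it was 8.64 and 8.59 (Neo2/Neo2), 9.28 and 9.14 (Neo2/Neo), 9.14 and 8.70 (Neo2/-), 9.00 and 8.69 (Neo/Neo), and 7.78 and 8.62 (-/-). Both Neo2/Neo embryos were above every embryo of WT, against 20.1% of all probe sets, and -/- replicate 1 was the lowest of all 18. Dll1 was steadier, between 8.16 and 8.55 on 17 arrays and at 7.80 in -/- replicate 1, where replicate 2 had 8.42 and WT had 8.39 on both arrays.

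Mesp2 sets the anterior border of the next somite. Its probe set was dim, at the 38.5th percentile of all probe sets, and read 4.77 and 4.90 in WT. The values with 1 wild-type allele were 4.81 and 4.74 (Neo2/+), 4.84 and 4.92 (Neo/+), and 5.14 and 5.12 (+/-). With 0 they were 4.84 and 5.10 (Neo2/Neo2), 4.73 and 4.82 (Neo2/Neo), 4.68 and 5.38 (Neo2/-), 4.74 and 4.91 (Neo/Neo), and 5.37 and 5.34 (-/-). The -/- embryos were close to each other and lay above both WT embryos (20.5% of all probe sets did so), as did the +/- embryos (21.6%). The Neo2/- embryos held the lowest and the highest value of the series.

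Among the differentiation genes, Tcf15 (paraxis), which somites need to become epithelial, varied least apart from Nkx3-2, by the brightest probe sets. It was at 8.34 and 8.57 in WT and at 8.65 and 8.92 in -/-, and its 9 genotype means spanned 0.33. WT was the lowest genotype and -/- the highest.

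Meox1, a homeobox gene of somites and sclerotome, had the widest span of genotype means among the 4 differentiation genes, 0.95. It read 9.07 and 9.02 in WT. With 1 wild-type allele it read 9.01 and 9.02 (Neo2/+), 8.82 and 9.10 (Neo/+), and 9.17 and 9.40 (+/-). With 0 it read 8.90 and 9.07 (Neo2/Neo2), 8.60 and 8.29 (Neo2/Neo), 9.07 and 8.96 (Neo2/-), 8.44 and 8.59 (Neo/Neo), and 8.88 and 9.91 (-/-). The 4 embryos of Neo2/Neo and Neo/Neo were the lowest of the series and overlapped none of the other 7 genotypes. Their differences from WT were -0.60 (SE 0.24, limma adjusted p = 0.683) and -0.53 (SE 0.24, limma adjusted p = 0.706), and they did not pass. These genotypes were put together after their values were seen, and the share of all probe sets with such a split was not counted. Both embryos lay below both WT embryos at 23.8% of all probe sets in Neo2/Neo and at 20.7% in Neo/Neo. The -/- embryos differed from each other by more than any other pair at this gene, so their mean of 9.40 ± 0.72 (SD, n = 2) does not separate from WT.

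Pax3, the paired-box gene of dermomyotome, dorsal neural tube and neural crest, had 3 probe sets. At the brightest the signal was 8.66 and 8.74 in WT. Next to it stood 8.71 and 8.73 (Neo2/+), 8.46 and 8.54 (Neo/+), and 8.68 and 8.40 (+/-) with 1 wild-type allele. With 0 stood 8.49 and 8.66 (Neo2/Neo2), 8.79 and 8.66 (Neo2/Neo), 8.85 and 8.62 (Neo2/-), 8.66 and 8.56 (Neo/Neo), and 7.72 and 8.43 (-/-). Both -/- embryos were below both WT embryos, against 18.6% of all probe sets, replicate 1 by far the more. The other probe sets did not separate -/- from WT: the second read 7.82 and 8.16 in -/- against 7.94 and 8.15 in WT, and the third 7.31 and 8.19 against 7.89 and 7.99. Nkx3-2, which drives sclerotome toward cartilage, was at 3.63 to 4.12 on all arrays, the 21.5th percentile of all probe sets. The files hold no detection calls, so whether that is above background is not known.

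**Figure D1:**
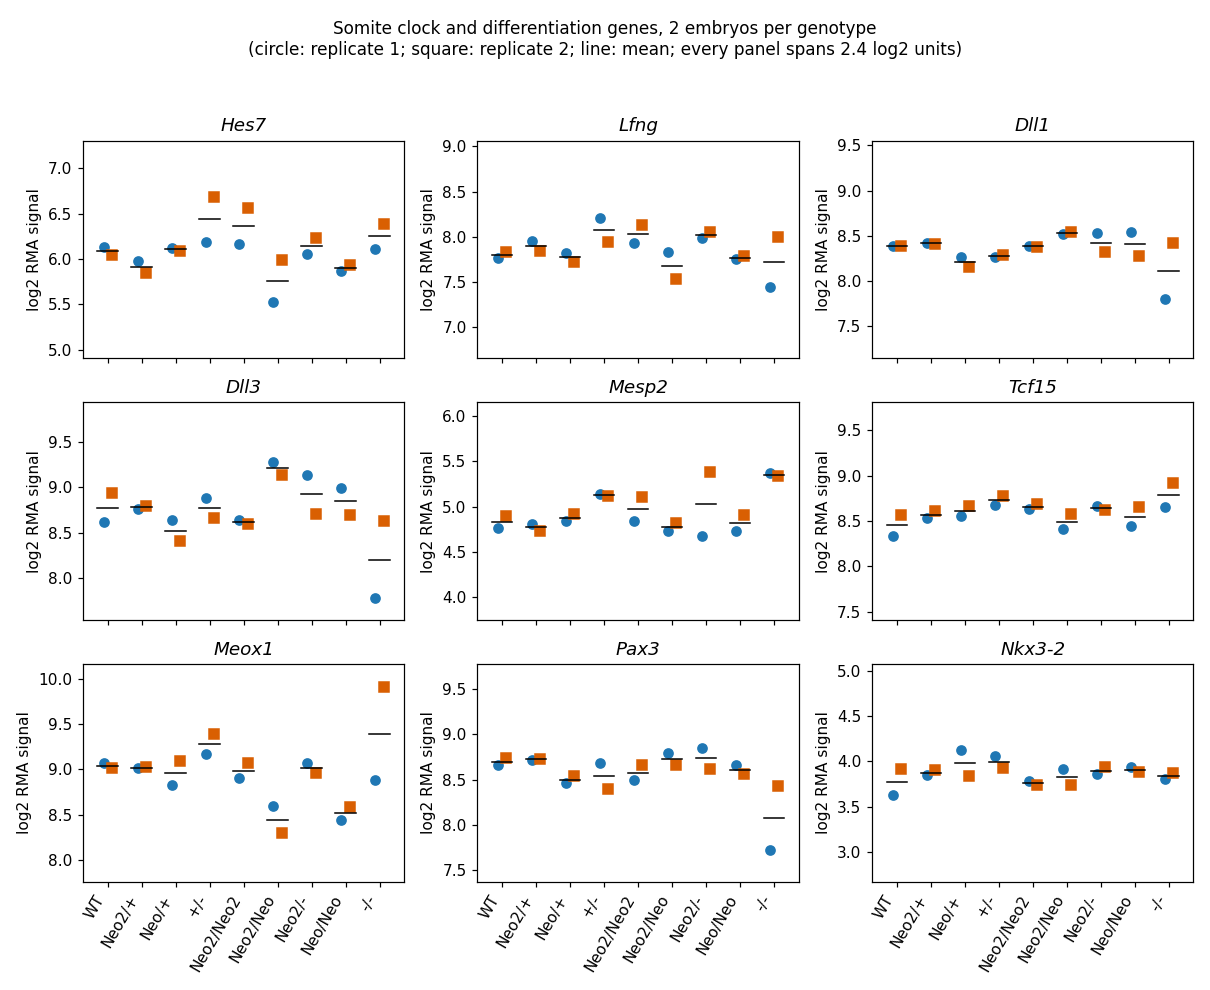
Log2 RMA signal (y axis) of the brightest probe set of each of the 9 genes in every embryo, by genotype (x axis), with circles for replicate 1, squares for replicate 2 and a line at the mean. The Meox1 values of Neo2/Neo and Neo/Neo sit between 8.29 and 8.60, below all others, and in -/- replicate 1 Dll1, Dll3 and Pax3 are at 7.80, 7.78 and 7.72, their lowest values.

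The comparison of -/- with WT asks what follows from complete loss of Tbx1. The differences ran both ways: Mesp2 had 0.52 (95% interval 0.14 to 0.90), Tcf15 0.33 (0.07 to 0.60), Meox1 0.35 (-0.17 to 0.88) and Hes7 0.16 (-0.24 to 0.57), whereas the brightest Pax3 probe set had -0.62 (-1.02 to -0.23), Dll3 -0.57 (-1.08 to -0.07), Dll1 -0.28 (-0.63 to 0.07) and Lfng -0.08 (-0.43 to 0.27). Their adjusted p-values in limma were 0.204, 0.228, 0.537 and 0.749 for the first 4 and 0.167, 0.270, 0.451 and 0.876 for the last 4. At an unadjusted p under 0.05 stood 4 of the 12 member probe sets (Mesp2, Tcf15, Dll3 and Pax3), with 15.1% of all probe sets at that level. Both -/- embryos lay above both WT embryos for 2 of the 12 and below them for 1 of the 12, against 20.5% and 18.6% of all probe sets. The median difference was -0.07 over the 12 and 0.00 over all probe sets.

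The lower values rest on 1 array. Without -/- replicate 1 the remaining -/- embryo differed from WT by -0.27 for Pax3, -0.15 for Dll3, 0.034 for Dll1 and 0.20 for Lfng, and again 0 of 12 passed. Without -/- replicate 2, limma called 5 of 12, all lower: Pax3 at -0.98 (adjusted p = 0.0019), Dll3 at -0.99 (0.0097), Dll1 at -0.59 (0.0114), a dimmer Pax3 probe set at -0.64 (0.0119) and the dimmer Lfng probe set at -0.80 (0.0185). In that fit 11.4% of all probe sets were called. On -/- replicate 1 the Notch pathway, neural tube progenitor, dorsal neural tube, neural crest and sclerotome lists were also at the lowest level of the 18 arrays (-0.37, -0.26, -0.17, -0.25 and -0.29, each as the mean deviation of its genes from their means), while the neuron list was at 0.34. Their part in the lower Dll1, Dll3 and Pax3 values was not tested. Mesp2 and Tcf15 kept their sign without either -/- array, with differences of 0.46 to 0.59 and 0.20 to 0.47 over the fits that left out 1 array.

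**Figure D2:**
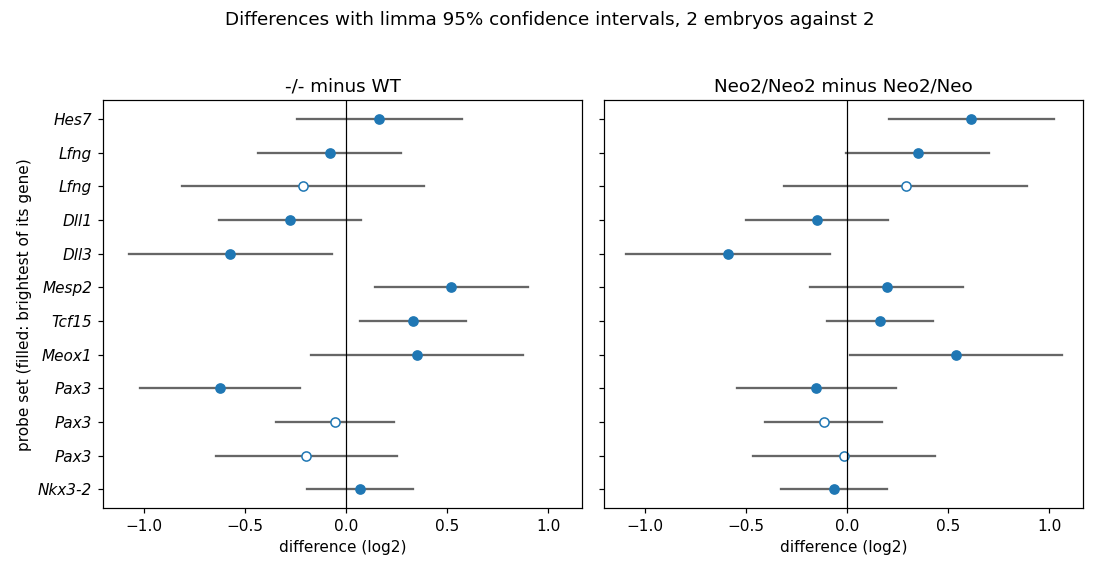
Difference on the log2 scale (x axis) with limma's 95% confidence interval for the 12 probe sets (y axis, filled where the probe set is the brightest of its gene), for -/- minus WT on the left and Neo2/Neo2 minus Neo2/Neo on the right. In -/- the points run from -0.62 (Pax3) to 0.52 (Mesp2), and on the right from -0.59 (Dll3) to 0.61 (Hes7).

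Over the other 7 genotypes against WT, the 12 probe sets ranged from -0.60 (Meox1 in Neo2/Neo) to 0.44 (Dll3 in Neo2/Neo). In +/- embryos 6 of the 12 probe sets were higher in both embryos than in both WT embryos, against 21.6% of all probe sets, and 1 was lower, against 12.3%. Replicate 1 of +/- is one of the arrays that stood apart, and without +/- replicate 2 limma called 11.2% of all probe sets in +/- but 0 of these 12. At an unadjusted p under 0.05 stood 1 of 12 (Tcf15), against 11.7%. The 6 were Hes7, Lfng, Mesp2, Tcf15, Meox1 and Nkx3-2, and their +/- differences did not pass the test. In Neo2/Neo2 embryos 4 of 12 were higher than WT in this sense (24.8% of all probe sets) and 0 lower (21.7%), and in Neo2/- also 4 (17.7%) and 0 (20.0%). Neo2/+ had 4 higher (19.3%) and 1 lower (20.7%), and Neo2/Neo had 4 higher (20.1%) and 2 lower (23.8%). The 4 higher in each of Neo2/-, Neo2/+ and Neo2/Neo include both dimmer Pax3 probe sets, while the brightest Pax3 probe set overlapped WT there. Neo/+ had 0 higher (23.1%) and 2 lower (18.6%), and Neo/Neo 0 higher (21%) and 2 lower (20.7%). Hes7 and Meox1 were the 2 lower ones in Neo2/Neo and in Neo/Neo. An unadjusted p under 0.05 was held by 0 of 12 in Neo2/+ (6.51% of all), Neo/+ (7.36%) and Neo2/Neo2 (11.6%). It was held by Meox1 in Neo2/Neo (1 of 12, against 6.72%) and Neo/Neo (1 of 12, against 7.01%), and by a dimmer Pax3 probe set in Neo2/- (1 of 12, against 6.28%). All these comparisons share the WT embryos, of which replicate 1 had the lowest Tcf15 and Nkx3-2 values of the series. With 0 against 1 wild-type allele (10 embryos against 6), the differences ran from -0.22 (Meox1) to 0.12 (a dimmer Pax3 probe set) with 0 of 12 called, as with 0% of all probe sets, and 0 of 12 at an unadjusted p under 0.05, against 4.53%. Regressed on the Tbx1 signal, the slopes ran from -0.09 (Mesp2) to 0.16 (Pax3) per log2 unit of Tbx1. limma called 0 of 12 there, as with 0% of all probe sets, and 0 of 12 had an unadjusted p under 0.05, against 8.74%. The widest 95% interval of a slope was that of Meox1, from -0.16 to 0.40.

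By their labels Neo2/Neo2 and Neo2/Neo both lack a wild-type allele, but the arrays labelled Neo2/Neo2 had Tbx1 at the WT level. The pair was chosen with earlier results known. Hes7 was at 6.17 and 6.57 in Neo2/Neo2 against 5.52 and 5.99 in Neo2/Neo, a difference of 0.61 (SE 0.19, 1.53-fold). Meox1 differed by 0.54 (SE 0.24) and Lfng by 0.35 (SE 0.16), while Dll3 differed by -0.59 (SE 0.23). Over the 12 probe sets, 6 were higher in both Neo2/Neo2 embryos than in both Neo2/Neo embryos (Hes7, both Lfng probe sets, Mesp2, Tcf15 and Meox1), against 34.2% of all probe sets. Another 4 were lower in both (Dll1, Dll3 and 2 Pax3 probe sets), against 25.2%. None passed the test: the limma adjusted p was 0.106 for Hes7, 0.271 for Meox1, 0.290 for Lfng and 0.203 for Dll3, and 0 of 12 were called against 2.65% of all probe sets. At an unadjusted p under 0.05 stood 3 of 12 (Hes7, Dll3 and Meox1), against 17.6%. Without the 2 arrays that stood apart, which are in neither group and enter only through the shared spread, limma called 3 of 12 against 11.1% of all probe sets: Hes7 (adjusted p = 0.0294), Meox1 (0.0194) and Dll3 (0.0380). Array weights called the same 3 genes against 15.1%. Without -/- replicate 1 or -/- replicate 2 alone, Meox1 was called (adjusted p = 0.0345, 6.26% of all probe sets) and the others were not. Meox1 was also the member called by the test of any difference between genotypes without both arrays (adjusted p = 0.0126, 2.77% of all probe sets) and without -/- replicate 1 (adjusted p = 0.0237, 1.06%). Without -/- replicate 2 that test called 4 of 12 against 6.77%, on Meox1, Dll3 and 2 Pax3 probe sets.

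Other genes of the same tissues give the setting of that pair. Of 120 genes on 10 lists, 111 had a probe set with a single symbol. limma called 0 of them in any comparison with WT. In Neo2/Neo2 against Neo2/Neo it called 20 of 111, 6 higher and 14 lower, against 0.97% and 1.68% of all probe sets. List genes were read at their brightest probe set, and a fit restricted to the brightest probe set per gene called 4.15% of 18193. The lists, like the pair, were chosen with earlier results of these data known, so these counts are descriptions. From the list of presomitic mesoderm and tail bud, which feed the somites, 4 of 13 rose in Neo2/Neo2, namely Cdx4 (2.46, SE 0.47), Nkx1-2 (2.22), Cdx2 (1.64) and Fgf17 (0.91), and 0 fell. The list's median difference was 0.70, against 0.06 over the brightest probe sets of all genes. In the neuron list 7 of 9 fell, among them Elavl3 (-1.98, SE 0.29), an RNA-binding protein gene of new neurons, Lhx1 (-2.45) and Elavl4 (-1.52), with a median of -2.27. Sp5, a Wnt target, rose (1.05) and Epha4, an ephrin receptor gene of somite borders, fell (-0.62) in the list of segmentation and somite borders (1 and 1 of 17). Hey2, a Notch target, rose by 0.51 as the 1 call among 18 Notch pathway genes. Sox9 fell in sclerotome (-0.77, 1 of 9), Myf5 in dermomyotome and myotome (-0.66, 1 of 12), Dbx1 and Neurog1 in neural tube progenitors (-0.85 and -0.79, 2 of 11), Zic1 in dorsal neural tube (-0.88, 1 of 7) and Afp in yolk sac and blood (-3.39, 1 of 8). None of 7 neural crest genes was called. The calls depend on both embryos of each group: of the 20, limma left 2 without Neo2/Neo2 replicate 1 and 0 without Neo2/Neo2 replicate 2, Neo2/Neo replicate 1 or Neo2/Neo replicate 2. Without both arrays that stood apart there were 41, without either -/- array 38, and with embryo sex as a covariate 10.

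Genes of these lists with the smallest p in the test of any difference did not pass either. They were Jag1, Hey2 and Notch1 (Notch pathway, adjusted p = 0.105, 0.142 and 0.308), Epha4, Sp5 and Efnb2 (segmentation), Cdx4, Fgf17 and Cdx2 (tail bud), Sox9, Fmod and Col2a1 (sclerotome), Dmrt2, Myf5 and Meox2 (dermomyotome and myotome), Dbx1, Hes3 and Neurog1 (neural progenitors), Zic1, Atoh1 and Msx1 (dorsal neural tube), Elavl3, Lhx1 and Elavl4 (neurons), Erbb3, Ets1 and Ednrb (neural crest), and Afp, Ttr and Hba-x (yolk sac and blood). Cdx4 had a mean of 5.84 in Neo2/Neo2, 4.75 in -/- and 3.38 in Neo2/Neo, with WT at 3.67. Notch1, the main receptor of the clock, had 9.42 in WT, 9.64 in Neo2/Neo and 8.48 in -/-. The -/- means of Cdx4 and Notch1 pool embryos whose lists differed. The tail bud list was at -0.24 in -/- replicate 1 and 0.58 in replicate 2, and the Notch pathway list at -0.37 and -0.11. Meox2, the paralog of Meox1, had 7.20 in WT, 7.63 in Neo2/Neo, 7.42 in Neo/Neo and 7.67 in -/-, so its mean was not below WT where Meox1 was low.

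The clock genes were set beside the differentiation genes as a difference of means. With each gene as its deviation from its own mean, the clock mean minus the differentiation mean was -0.01 in WT. With 1 wild-type allele it was -0.09 (Neo2/+), -0.11 (Neo/+) and 0.01 (+/-), and with 0 it was -0.09 (-/-), 0.06 (Neo/Neo), 0.08 (Neo2/Neo2), 0.04 (Neo2/-) and 0.12 (Neo2/Neo). Embryos of 1 genotype differed by an SD of 0.07 in this value. Both embryos of Neo2/Neo2 (0.046 and 0.12) and of Neo2/Neo (0.050 and 0.19) lay above both WT embryos (0.012 and -0.037). Both embryos of Neo2/+ (-0.041 and -0.14), Neo/+ (-0.052 and -0.17) and -/- (-0.063 and -0.13) lay below them, and the +/-, Neo2/- and Neo/Neo embryos overlapped WT. All of these share the same 2 WT embryos, and the share of other gene sets that split so was not counted. Of single probe sets, 12.3% to 24.8% lay apart from WT in a given direction, by genotype. No test was made, because the members were chosen with results known. In Neo2/Neo the value became 0.00018 without Dll3 and -0.0075 without Meox1, and in -/- it became 0.044 without Meox1 and 0.021 without Dll3. Its size and its sign in these genotypes thus rest on single genes.

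**Figure D3:**
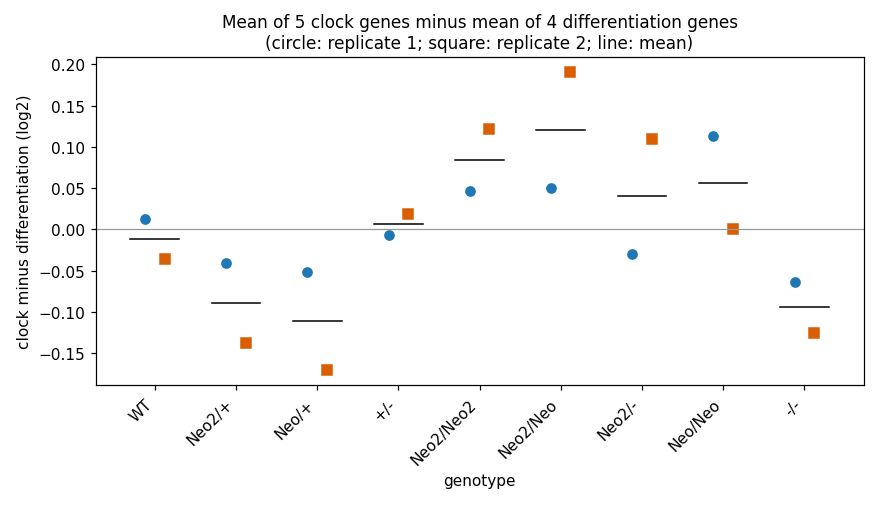
Mean of the 5 clock genes minus mean of the 4 differentiation genes (y axis, log2, each gene as its deviation from its mean over the 18 arrays) in every embryo, by genotype (x axis), with circles for replicate 1, squares for replicate 2 and a line at the mean. Genotype means lie between -0.11 (Neo/+) and 0.12 (Neo2/Neo).

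By their correlations the genes sorted into groups that cross the division into clock and differentiation genes. These groups were recognised after their values were seen. Over the 18 arrays Pearson's r was 0.90 between Dll1 and Dll3, 0.85 between Dll1 and Pax3 and 0.87 between Dll3 and Pax3. Hes7, Mesp2, Tcf15 and Meox1 correlated with each other at 0.50 to 0.65, and each of them correlated negatively with each of Dll1, Dll3 and Pax3, from -0.61 to -0.14. Between clock genes alone the median r was 0.24 over 10 pairs, between differentiation genes 0.05 over 6 pairs and between the sets 0.24 over 20 pairs. Without both arrays that stood apart these medians were -0.20, -0.11 and 0.08, so the first and the second turned sign. Nkx3-2 stayed between -0.10 and 0.30 with all others. These values are descriptions, since the arrays share genotypes and 1 array weighs on them: without both arrays that stood apart the first 3 became 0.83, 0.61 and 0.69, the 6 pairs among Hes7, Mesp2, Tcf15 and Meox1 were 0.57 to 0.68, and the 12 pairs between the groups were -0.61 to -0.30. Lfng differed between the sets of arrays, with r of 0.48 to Pax3 and 0.18 to Mesp2 over 18 arrays and -0.06 and 0.53 over 16.

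**Figure D4:**
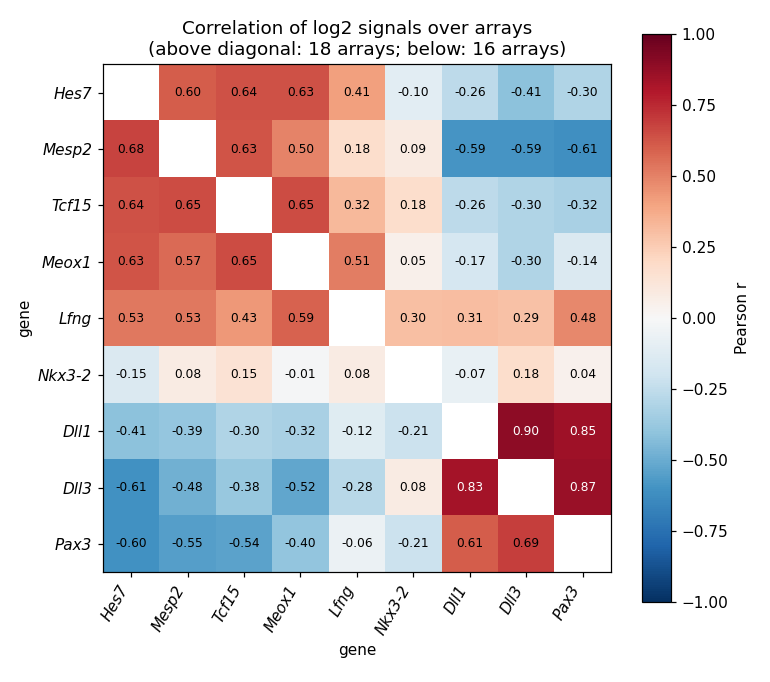
Pearson's r between the log2 signals of the brightest probe sets of the 9 genes (both axes; colour scale from -1 to 1), over 18 arrays above the diagonal and over the 16 arrays left without replicate 1 of +/- and of -/- below it. The block of Hes7, Mesp2, Tcf15 and Meox1 and the block of Dll1, Dll3 and Pax3 are positive within and negative between on both sides of the diagonal.

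Marker lists moved with both groups. Without the 2 arrays that stood apart (n = 16), Dll3 correlated at 0.86 with the neuron list and 0.87 with the neural tube progenitor list, Pax3 at 0.68 and 0.73, and Dll1 at 0.63 with both. Over all 18 arrays their correlations with the neuron list were lower, 0.48 for Dll3, 0.22 for Pax3 and 0.28 for Dll1. Over the 16 arrays, Hes7, Mesp2, Tcf15 and Meox1 correlated with the neuron list at -0.71, -0.59, -0.63 and -0.63, and with the tail bud list at 0.71, 0.62, 0.74 and 0.63. Over 18 these were -0.71, -0.47, -0.61 and -0.64 for neurons and 0.70, 0.45, 0.71 and 0.63 for the tail bud. The yolk sac and blood list correlated at 0.80 with Dll3, 0.52 with Pax3 and 0.57 with Dll1 over 16 arrays. With Hes7, Mesp2, Tcf15 and Meox1 it correlated at -0.55, -0.33, -0.59 and -0.65. Over 18 arrays its values were 0.35, 0.04 and 0.16, and -0.54, -0.20, -0.56 and -0.65. The Notch pathway list correlated at 0.81 with Dll3, 0.74 with Pax3 and 0.58 with Dll1 over 16 arrays. Over 18 these were 0.89, 0.89 and 0.85. Its values with Hes7, Mesp2, Tcf15 and Meox1 were -0.53, -0.57, -0.36 and -0.60 over 16. They became -0.33, -0.68, -0.29 and -0.33 over 18. With these genes the segmentation list stood at 0.50, 0.66, 0.72 and 0.27 over 16. Over 18 it stood at 0.43, 0.28, 0.59 and 0.26. Correlations with the other lists are not given. The share of all genes that correlate so with these lists was not counted. The neuron list was at -0.99 and -0.95 in Neo2/Neo2, 1.09 in both Neo2/Neo embryos, -0.91 in -/- replicate 2 and 0.34 in replicate 1, and 0.21 and 0.30 in WT. The tail bud list was at 0.57 and 0.56 in Neo2/Neo2, -0.36 and -0.27 in Neo2/Neo, 0.58 in -/- replicate 2, -0.24 in replicate 1, and -0.34 and -0.23 in WT. All 9 neuron genes were measured; of the tail bud list, T is not analysed here. The part of these lists in the values of the somite genes was not tested.

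**Figure D5:**
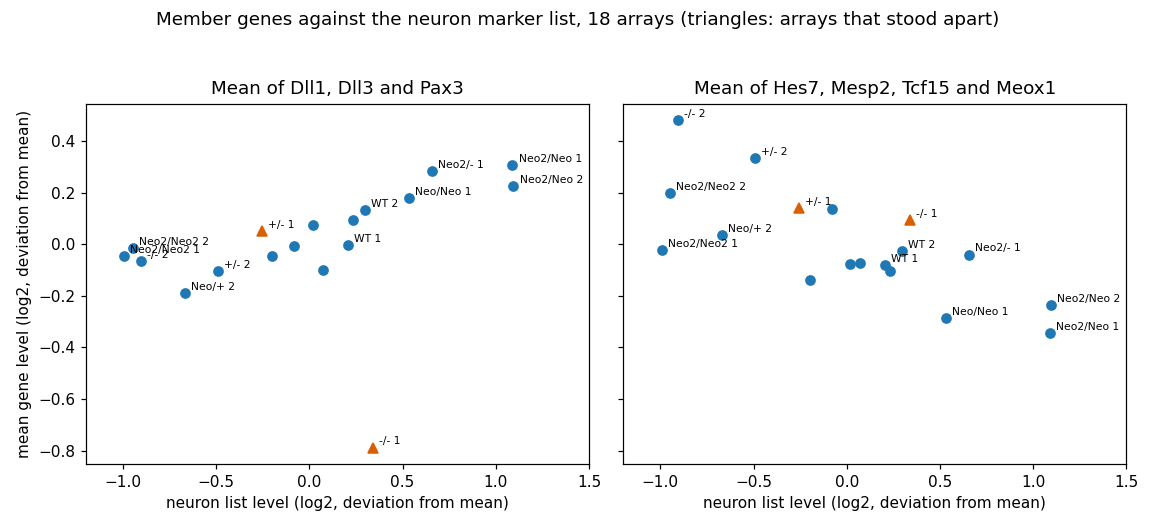
Mean level of Dll1, Dll3 and Pax3 (left) and of Hes7, Mesp2, Tcf15 and Meox1 (right) in each of the 18 embryos (y axis, log2 deviation from the gene's mean) against the level of the neuron list (x axis, same unit), with triangles for the arrays that stood apart. On the left, Neo2/Neo replicate 1 lies highest at 0.31 and -/- replicate 1 lies apart at -0.79. On the right, the values go from 0.48 in -/- replicate 2 down to -0.34 in Neo2/Neo replicate 1.

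Across 18188 other genes, those most like each member over the 18 arrays were found by Pearson's r. The values for Dll1, Pax3 and Lfng were lower without the arrays that stood apart: Cdh4, Ncam1 and Zmiz1 had 0.78, 0.75 and 0.71 to Dll1, Zmiz1, Notch1 and Tacc2 had 0.91, 0.79 and 0.77 to Pax3, and Thbs4, Slc24a3 and Tmbim1 had 0.81, 0.81 and 0.78 to Lfng. For the other 6 members they lay between 0.76 (Gm20300 to Nkx3-2) and 0.89 (Celsr2 to Dll3). Dll3 was most like Celsr2 (0.95), a cadherin of planar cell polarity, followed by Clip3 and Wnk2 (both 0.94). Dll1 was most like Cdh4 (0.91), Ncam1 (0.91), the neural cell adhesion molecule gene, and Zmiz1 (0.90), and Pax3 was most like Zmiz1 (0.96), Notch1 (0.94) and Tacc2 (0.94). Lfng was most like Thbs4, Slc24a3 and Tmbim1 (0.90, 0.90 and 0.89). Hes7 was most like Fkbp11, Txn2 and Skap2 (0.84, 0.84 and 0.83), Mesp2 like Nanp, Saysd1 and Vps45 (0.88, 0.88 and 0.87), Tcf15 like Snhg3, Ttc30a1 and Icam2 (0.89, 0.85 and 0.83), Meox1 like Usp39, Lta4h and Rce1 (0.85, 0.85 and 0.84) and Nkx3-2 like Snrnp48, Rfx2 and Gm20300 (0.81, 0.79 and 0.76). Among these 18188 genes, over 18 arrays, Dll3 ranked 4 for Dll1, and Pax3 ranked 42, whereas Hes7 had Tcf15 at rank 421 and Meox1 at 452.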

How the data were processed

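Deposited values are log2 probe set signals from 18 arrays, made by the authors; per the submitters' processing notes the tools were affy and RMA; the sources used here give no versions. They carry no detection call, and the number of arrays limits precision. Values were used as deposited, without a filter. The annotation gave 1 symbol to 34945 probe sets (18193 genes), several to 932 and none to 9160; 34741 gene IDs matched RefSeq GRCm38.p6, which changed 0 symbols. The brightest probe set stands for a gene where 1 value is needed.

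limma 3.58.1 in R 4.3.3 fitted 9 genotype means over all 45037 probe sets (lmFit, eBayes, 9 residual and 3.63 prior degrees of freedom), 3 means by number of wild-type alleles, and a slope on the Tbx1 signal. Tests were two-sided, and calls needed an adjusted p under 0.05 (Benjamini-Hochberg, all probe sets together). SD is between embryos; SE and intervals (95%) are limma's. The fit was tested on simulated data with 200 changed probe sets.

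The 10 marker lists were the Notch pathway, segmentation and somite borders, presomitic mesoderm and tail bud, sclerotome, dermomyotome and myotome, neural tube progenitors, dorsal neural tube, neurons, neural crest, and yolk sac and blood. Named genes are all members, Tbx1, the 3 genes of each list with the smallest p in the test of any difference, every list gene called in Neo2/Neo2 against Neo2/Neo (named after their values were seen), and the 3 genes most correlated with each member; sex markers are not named beyond the sex count. Members, lists and the pair Neo2/Neo2 and Neo2/Neo were chosen with earlier results of these data known. Alternatives left out arrays singly or both that stood apart, added a replicate block, intensity trend, array weights or sex, rescaled arrays, or restricted probe sets. Same-numbered embryos were not paired: over 36 pairs of genotypes the deviations of the replicates correlated at a median of 0.04 (-0.26 to 0.19).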

Additional observations from a re-analysis of the deposited data

Results flagged for a closer look

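With the 10 embryos without a wild-type allele and the 6 with 1 taken as groups, the 9 genes gave 18 groups to examine for a single far value, and 4 were marked. In independent groups of like embryos chance would mark about 1 in 20. These groups pool genotypes, and Dll1, Dll3 and Pax3 vary together, so the 4 marks cannot be set against that rate. On -/- replicate 1, Dll1 was at 7.80 with the next value at 8.28, Dll3 at 7.78 with the next at 8.59, and Pax3 at 7.72 with the next at 8.43. These are 3 of 4 marks on 1 array, one of the 2 that stood apart over all probe sets. On -/- replicate 2, Meox1 was at 9.91 with the next value at 9.07.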

How the results depend on the processing

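Over 324 refits of the 12 counts of members called, 316 gave 0 and 8 did not. Left out singly, arrays gave 0 to 5 calls in -/- against WT, 0 to 1 in Neo2/Neo2 against Neo2/Neo and 0 to 4 for any difference, the higher counts without a -/- array. Without both arrays that stood apart the counts were 3 in Neo2/Neo2 against Neo2/Neo and 1 for any difference, and with array weights 3 in the former; the cause was not tested. The replicate block gave 0 calls in every comparison, with Hes7 at an adjusted p of 0.0633 in Neo2/Neo2 against Neo2/Neo. With 2 embryos a group, the shared spread limits what can be called.

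Counts over all probe sets moved more. Leaving out single arrays gave 0 to 5121 in -/- against WT (14 with all), 0 to 5066 in +/- against WT (0 with all; 5066 without +/- replicate 2), 0 to 2818 in Neo2/Neo2 against Neo2/Neo (1195) and 21 to 4777 for any difference (124); other alternatives gave 1 to 65, 325 to 6791 and 37 to 1335. For Neo/+, Neo/Neo and Neo2/Neo2 against WT (14, 37 and 1) the other alternatives reached 68, 136 and 911.

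Signs that turned belong to differences that were not called in the fit with all arrays. Among them are the -/- differences of Dll1, the dimmer Lfng probe set and a dimmer Pax3 probe set. These were called lower without -/- replicate 2 and turned positive without -/- replicate 1. Without -/- replicate 1, alone or with +/- replicate 1, the -/- difference became 0.20 and 0.37 at the Lfng probe sets, 0.034 for Dll1, and 0.12 and 0.24 at the dimmer Pax3 probe sets. Over single arrays left out, the -/- differences ran from -0.36 to 0.20 and -0.80 to 0.37 (Lfng), -0.59 to 0.034 (Dll1), -0.22 to 0.12 and -0.64 to 0.24 (dimmer Pax3), -0.16 to 0.87 (Meox1) and -0.071 to 0.21 (Nkx3-2). In Neo2/Neo2 against Neo2/Neo they ran from -0.068 to 0.036 for the dimmest Pax3 probe set, which was at 0.047 with centred arrays and 0.0013 with sex as a covariate, and from -0.16 to 0.023 for Nkx3-2. Tbx1 ran from -0.088 to 0.0041 in Neo2/+, -0.013 to 0.078 in Neo2/Neo2 and -0.45 to 0.021 in +/-.

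Clock minus differentiation depended on its members. In Neo2/Neo (0.12) it became 0.21 without Hes7, 0.00018 without Dll3, -0.0075 without Meox1 and 0.21 without Pax3, and 0.062 to 0.19 without single arrays. In -/- (-0.09) it became 0.021 without Dll3, -0.21 without Mesp2, 0.044 without Meox1 and -0.27 without Pax3, and in Neo/Neo (0.06) -0.056 without Meox1.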
